A study of Mus musculus with 2 samples.

Results

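Clade B serpins are protease inhibitors that act mainly inside cells. A serpin holds out an exposed loop as bait, and a protease that cuts the loop is trapped in a dead complex with the inhibitor. In the mouse the genes lie in a cluster on chromosome 1, which holds the serpins best known from keratinocytes, and a cluster on chromosome 13, where local duplication has made families of close copies. Stratified epithelia such as the epidermis are known for making many of them, where they restrain cathepsins, trypsin-like enzymes and plasminogen activators.

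All probes named Serpinb followed by a digit were taken from the arrays, which gave 31 probes for 27 genes among 55681 probes that were not controls. Of these, 13 probes for 12 genes lie on chromosome 1 and 18 probes for 15 genes on chromosome 13. The name alone decided which probes were taken, although the group was chosen with earlier results of these data known. The study compared epidermis of FVB/N pups with an induced SOX11 transgene with that of littermates on 2-colour microarrays, each array holding 1 littermate pair. Control pups carried K14-rtTA, a doxycycline-dependent activator under a promoter of the basal keratinocyte layer. SOX11-induced pups carried K14-rtTA together with TRE-Sox11-FLAG, so that tagged SOX11 was made where the activator was. All pups were at P4.5 and all received doxycycline (Dox) for 12 h, the controls included. The methods describe epidermal sheets separated from dorsal skin by dispase, so that cells other than basal keratinocytes were in the sheets too. Control RNA carried Cy3 (green) and SOX11-induced RNA carried Cy5 (red) on both arrays, so that a positive log2 Cy5/Cy3 ratio means a brighter SOX11-induced side. Dyes were not turned around between the arrays, and genotype and dye effects on a probe cannot be told apart.

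Both arrays lay on 1 slide. Between 37.5% and 42.6% of spots were well above background in a channel. Before normalization the red channel was the brighter, with a median net brightness over probes above background of 154 (control) and 307 (SOX11-induced) on array 1 and of 175 and 385 on array 2. The 2 probes of Sox11 itself stayed below background in all channels and could not check the labels. Markers of basal keratinocytes (5 of 5) and of suprabasal keratinocytes (5 of 5) were above background on both arrays.

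Of the 31 serpin probes, 19 probes for 17 genes were above background on both arrays, each in 1 channel or more, and 17 of these were above it in both channels throughout. The other 2, Serpinb6b and Serpinb6d, were above background in the SOX11 channel alone, so that their place among the 19 already depends on the difference. The clusters differed in what could be seen. On chromosome 1, 12 of 13 probes were above background, with Serpinb3d the exception. On chromosome 13, 7 of 18 were above it, and 11 probes for 9 genes, which include every Serpinb9 gene on the array and Serpinb1b and Serpinb1c, were below it in every channel.

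Close copies share sequence, and the sequences on the array set how far they can be separated. Among all 465 pairs of member probes, 9 aligned with a score of at least 20, of which 2 were pairs of probes of the same gene and 7 were pairs of paralogs. The next best pair scored 13. In the Serpinb6 group, the Serpinb6a probe matched the Serpinb6c probe at 33971686 in 55 of 59 aligned bases (93.2%), Serpinb6c matched Serpinb6e in 50 of 57 (87.7%) and Serpinb6a matched Serpinb6e in 49 of 56 (87.5%). Corresponding stretches of 30 bases from these probes are shown because the similar probes of Serpinb6c and Serpinb6e gave ratios of opposite direction. The 6 positions that differ are in capitals. Both Serpinb6c probes hold the stretch shown for that gene.
Serpinb6a: ttatccataaGtGCaatgGcaATtatgaaa
Serpinb6c: ttatccataaGtGCaatgAcaGCtatgaaa
Serpinb6e: ttatccataaAtATaatgAcaGTtatgaaa
In the Serpinb3 group, the probes of Serpinb3a and Serpinb3c matched in 43 of 47 aligned bases (91.5%). Their stretches of 30 bases differ at 2 positions, again in capitals.
Serpinb3a: agTttcttctaatctagcatAtatctgtgc
Serpinb3c: agGttcttctaatctagcatGtatctgtgc
The probe of Serpinb8 is shown for another reason. It is built largely of a TG repeat, with 19 TG pairs in its 60 bases, while no other member probe held more than 8. A stretch of 30 bases is given with each TG in capitals.
Serpinb8: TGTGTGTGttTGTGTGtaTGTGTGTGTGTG
These probe sequences are from the array files. Positions below are those of the files on the build mm9, and whether a probe lies in an exon or a UTR was not analysed here.

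More clade B serpin probes were higher than lower in SOX11-induced epidermis, with exceptions in both clusters. Of the members that passed, Serpinb6c and Serpinb6b on chromosome 13 showed the largest ratios, followed by Serpinb1a. Serpinb3a and Serpinb2 on chromosome 1 also rose, as did the probe of Serpinb8, whose repeat sequence is shared by other probes with similar ratios, so that its ratio may not be that of Serpinb8 alone. Serpinb10 and Serpinb6e fell to about the same degree on the log2 scale, with means of -1.02 and -0.999. In bulk tissue, fewer cells of a type and less RNA per cell cannot be told apart.

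Over all 31 probes, 9 were higher and 2 lower at an adjusted p under 0.05 in the limma fit over 55676 probes. Among all probes tested, 2.99% were higher and 1.41% lower by this rule. Of the 9, Serpinb1b was below background in every channel. Among the 19 probes above background, 8 were higher and 2 lower, beside 6.78% and 3.21% of the 21782 probes of the array that were above background. The 8 include Serpinb6b and Serpinb6d, which are among the 19 only through the SOX11 channel. The remaining 9 of the 19 did not pass. With the further demand of a mean log2 ratio past 1.5, 2 member probes were called, both higher, beside 0.366% of all probes tested and 0.937% of those above background. A linear 1.5-fold threshold in its place called 11 member probes in either direction, beside 4.39% of all probes tested. These are the same 9 higher and 2 lower, Serpinb1b included, so that threshold removed no member that passed. Of the 19, 13 were positive on both arrays, 2 were negative on both and 4 had opposite signs. The median log2 ratio of the 19 was 0.52, while that of all probes above background was 0.04. The members also varied more between the arrays, with a median SD of 0.226 over the 19 and of 0.132 over all probes above background. These calls lean on variances shared across probes, since an exact sign-flip test of a pair of arrays gives no p below 0.5. With the processed signals of the scanner software no member and no other probe passed, although 8 members and 8757 probes in all had an unadjusted p under 0.05 there.

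**Figure D1:**
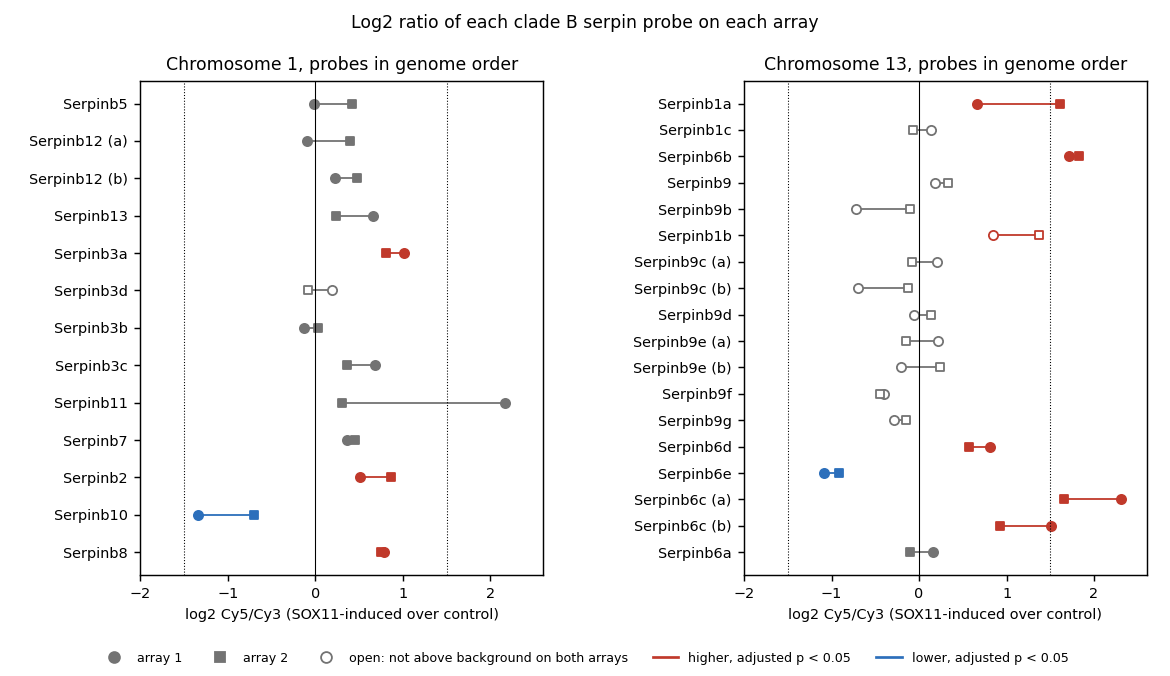
Log2 ratio of Cy5 over Cy3 of each of the 31 clade B serpin probes on array 1 (circles) and array 2 (squares), in genome order, with (a) and (b) marking the probes of one gene. Filled symbols are the 19 probes above background on both arrays, red lines are the 9 probes higher and blue lines the 2 lower at an adjusted p under 0.05, and dotted lines mark log2 1.5. Serpinb11 has the widest gap between arrays, from 0.31 to 2.16.

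On chromosome 1 the probes span 726 kb, from Serpinb5 to Serpinb8. The 12 probes above background had a median log2 ratio of 0.43, with 0.43 on array 1 and 0.41 on array 2. Of these, 3 passed as higher and 1 as lower, and 8 did not pass, beside 6.78% higher and 3.21% lower among all probes above background.

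Serpinb5 (maspin, known as a tumour suppressor of epithelia that does not inhibit proteases) lies at chr1:108778585-108778644. Its net brightness, spot mean minus local background, was 21925 in control and 48813 in SOX11-induced RNA on array 1 and 18811 and 64828 on array 2, which after normalization gave log2 ratios of -0.02 and 0.42. The arrays disagreed in sign, and the mean of 0.20 ± 0.313 (SD, n = 2) was smaller than its spread (limma adjusted p = 0.530).

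Serpinb12, an inhibitor of trypsin-like proteases, has a pair of probes at chr1:108846143-108846202 and chr1:108846179-108846238 that share 24 bases. The first gave -0.09 and 0.40 (mean 0.15 ± 0.349, limma adjusted p = 0.649) and the second 0.22 and 0.48 (mean 0.35 ± 0.182, adjusted p = 0.238). Both were higher on array 2 than on array 1, and neither passed. Serpinb13, whose human counterpart inhibits cathepsins K and L, lies at chr1:108897682-108897741 and gave 0.66 and 0.24 (mean 0.45 ± 0.295, limma adjusted p = 0.162). It was positive on both arrays, with a dim control channel of 78.7 and 72.7.

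The Serpinb3 genes are the mouse homologues of the squamous cell carcinoma antigens, human serpins that inhibit cathepsin L-like enzymes and cathepsin G. Serpinb3a, at chr1:108942312-108942371, had a net brightness of 740 in control and 3036 in SOX11-induced RNA on array 1 and of 352 and 1397 on array 2. Its log2 ratios of 1.01 and 0.81 were close to each other, with a mean of 0.91 ± 0.141, or 1.88-fold (limma adjusted p = 0.0117). Serpinb3c, at chr1:109167914-109167973, gave 0.68 and 0.36 (mean 0.52 ± 0.226) and did not pass (adjusted p = 0.101). This probe was printed in 10 spots, which gives the spread of repeat spots within an array. Spots ranged from 0.57 to 0.83 on array 1 (SD 0.0804) and from 0.19 to 0.46 on array 2 (SD 0.0713), and the spots of the arrays did not overlap. The arrays are different pairs of pups, so that their gap holds biological spread as well as spot error. Serpinb3b, at chr1:109051288-109051347, was near 0 with -0.13 and 0.03 (mean -0.05 ± 0.113, adjusted p = 0.889), and its mean turned positive, 0.45, where median centring replaced loess. Serpinb3d, at chr1:108974831-108974890, exceeded background on 1 array alone and there in SOX11-induced RNA, with ratios of 0.19 and -0.08. A rise within this family thus passed at 1 of its 4 genes. Serpinb3c passed too with an offset of 50 (0.51, adjusted p = 0.0246) and with median centring (1.08, adjusted p = 0.000945). Over the whole array, 2850 probes were higher with that offset and 12123 with median centring, in place of 1662. Differences between the genes were not tested.

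Serpinb11 (epipin) lies at chr1:109276756-109276815 and stood apart for the gap between arrays. Control brightness was 79.1 on array 1 and 560 on array 2, and SOX11-induced brightness was 752 and 1566. The log2 ratio was 2.16 on array 1 and 0.31 on array 2, and the mean of 1.23 ± 1.31 did not pass (limma adjusted p = 0.0764). A list of 8 hair shaft keratins, all above background and none passing, had the same order, with a median log2 ratio of 2.30 on array 1 and -0.43 on array 2. Their summed net brightness was 21514 in control and 231265 in SOX11-induced RNA on array 1, and 222081 and 459331 on array 2. The part of hair follicle material in the Serpinb11 ratio was not tested. Without array 1, the Serpinb11 ratio is 0.31.

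Serpinb7 (megsin), at chr1:109349063-109349122, had little spread, with 0.36 and 0.46 (mean 0.41 ± 0.0685), and did not pass (adjusted p = 0.164). It passed with an offset of 50 (0.42, adjusted p = 0.0288) and with median centring (1.04, adjusted p = 0.00108). Those settings gave 2850 and 12123 higher probes over the whole array, in place of 1662. Serpinb2, an inhibitor of urokinase, lies at chr1:109422046-109422105. Its net brightness rose from 552 in control to 1574 in SOX11-induced RNA on array 1 and from 637 to 2669 on array 2. The log2 ratios were 0.51 and 0.86, a mean of 0.69 ± 0.252 or 1.61-fold, just within the threshold (limma adjusted p = 0.0459). It was just outside with median spot brightness (adjusted p = 0.0690) and with the authors' deposited ratios (adjusted p = 0.0677). With processed signals it did not pass either (adjusted p = 0.336).

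Serpinb10 (bomapin), known from myeloid cells of the bone marrow, lies between Serpinb2 and Serpinb8 at chr1:109443390-109443449 and moved against its neighbours. Control brightness was 226 and 235 on the arrays and SOX11-induced brightness 148 and 291, which against the brighter red channel gave log2 ratios of -1.34 and -0.70. The fall of the mean was -1.02 ± 0.451 (limma adjusted p = 0.0154), and with median centring it was -0.53 and did not pass (adjusted p = 0.0546). Of 7 leukocyte markers, 6 were above background and none passed, with a median log2 ratio of -0.24. The summed net brightness of these markers was 10707 and 4370 in control and 17206 and 7493 in SOX11-induced RNA. Of 7 granulocyte and mast cell markers, 5 were never above background and the median was 0.01. Their part in the Serpinb10 ratio was not tested.

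Serpinb8, whose human counterpart inhibits furin, ends the cluster at chr1:109504865-109504924. It went from 4565 to 16830 on array 1 and from 5515 to 22807 on array 2, and its log2 ratios of 0.78 and 0.75 differed least of the 19, with a mean of 0.77 ± 0.0224 or 1.70-fold (limma adjusted p = 0.0229). Beside this stands the TG repeat of its probe. On the whole array 12 other probes (0.0216% of those tested) held at least as many TG pairs, and all were above background with mean log2 ratios from 0.53 to 0.64, a median of 0.59. Of these, 1 passed as higher, with adjusted p-values from 0.0466 to 0.0808. The part of the repeat in the Serpinb8 ratio was not tested, and the ratio may not be specific to this gene.

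**Figure D2:**
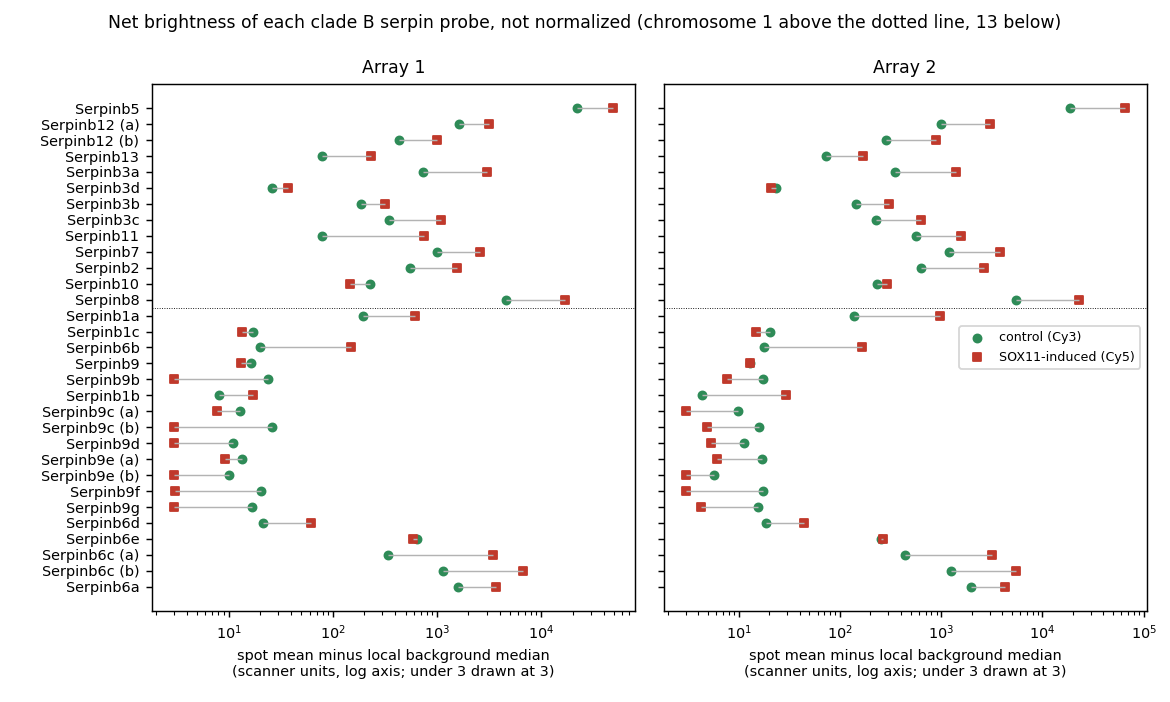
Net brightness of each member probe in scanner units on a log axis, before normalization, with control (Cy3) as green circles and SOX11-induced (Cy5) as red squares on each array. Probes differ in how well they bind, so only the channels of 1 probe can be set beside each other, and the red channel was brighter over the whole array. Red lies far to the right of green for both Serpinb6c probes and Serpinb6b, close to green for Serpinb6e, and to its left for Serpinb10 on array 1 and for most of the dim Serpinb9 probes.

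On chromosome 13 the probes span 1075 kb, from Serpinb1a to Serpinb6a. The mean log2 ratios of the 7 probes above background had a median of 1.14. This is above the median on either array, 0.81 on array 1 and 0.93 on array 2. Over all 18 probes, dim ones included, the median was 0.04. Of the 7, 5 passed as higher, 1 as lower and 1 did not pass, beside 6.78% higher and 3.21% lower among all probes above background. The 5 include Serpinb6b and Serpinb6d, which are among the 7 only through the SOX11 channel. They also include both Serpinb6c probes, which overlap, so the count is no measure of separate genes.

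Serpinb1a, the mouse leukocyte elastase inhibitor, lies at chr13:32934693-32934752. Its net brightness went from 197 to 613 on array 1 and from 139 to 972 on array 2. The log2 ratios of 0.66 and 1.61 had the same sign but differed widely, with a mean of 1.14 ± 0.671 or 2.20-fold (limma adjusted p = 0.0202), and in a fit of probes above background alone it fell just short (adjusted p = 0.0507). Serpinb1b, a close relative at 33185999, gave 0.84 and 1.37 with an adjusted p of 0.00806, but was not above background in any channel, with net values from 4.38 to 29.1, so that no change is read from it. Serpinb1c was near 0 (0.04) and below background.

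The Serpinb6 group, relatives of the human inhibitor of cathepsin G, held ratios from -0.999 to 1.98. Serpinb6b, at chr13:33070776-33070835, had a net brightness of 20.1 in control and 148 in SOX11-induced RNA on array 1 and of 17.6 and 167 on array 2. Since the control channel lay below the background mark on both arrays, the size of the change is uncertain. With the control set no lower than the lowest signal above background, SOX11-induced epidermis was 3.04-fold higher at the offset of 16. The fitted log2 ratios were 1.72 and 1.83 (mean 1.77 ± 0.0807, limma adjusted p = 0.000328). Serpinb6d, at chr13:33763131-33763190, was likewise above background in the SOX11 channel alone, with 21.3 and 62.4 on array 1 and 18.6 and 43.6 on array 2. By the same measure it was 1.40-fold higher, with fitted ratios of 0.81 and 0.57 (adjusted p = 0.0382). With median spot brightness its adjusted p was 0.0686, and with the authors' deposited ratios 0.0665. These folds compare the dyes directly and are open to dye bias. They also depend on the offset. With an offset of 50 the fitted mean log2 ratios were 1.17 (Serpinb6b) and 0.40 (Serpinb6d).

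Serpinb6c has a pair of probes, at chr13:33971686-33971745 and chr13:33971703-33971762, that share 43 bases and are no independent evidence of each other. The first went from 340 to 3477 on array 1 and from 435 to 3178 on array 2, with log2 ratios of 2.31 and 1.65 and a mean of 1.98 ± 0.466, or 3.95-fold (limma adjusted p = 0.000514). The second went from 1145 to 6710 and from 1237 to 5518, with ratios of 1.502 and 0.93 and a mean of 1.22 ± 0.405, or 2.32-fold (adjusted p = 0.00564). Both rose, the first by more than the second on each array, by 0.81 on array 1 and 0.72 on array 2 on the log2 scale. Serpinb6c and Serpinb6b were the members called past log2 1.5, the former by its first probe. With an offset of 50 Serpinb6b had a mean of 1.17 and was no longer past it, and with processed signals it had 4.25 and did not pass (adjusted p = 0.242).

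Serpinb6a, the mouse counterpart of the cathepsin G inhibitor, lies at chr13:34009796-34009855 and was near 0, with 1609 and 3680 on array 1, 1949 and 4220 on array 2 and log2 ratios of 0.16 and -0.11 (mean 0.03 ± 0.191, limma adjusted p = 0.947). With median centring it was 0.68 and passed as higher (adjusted p = 0.00913), as did 12123 probes over the whole array. Serpinb6e, at chr13:33924218-33924277, fell. It had 648 in control and 587 in SOX11-induced RNA on array 1 and 253 and 269 on array 2, with ratios of -1.08 and -0.91 and a mean of -0.999 ± 0.119 (adjusted p = 0.00710). With median centring the Serpinb6e mean was -0.46 and passed narrowly (adjusted p = 0.0473). In the reported values the first Serpinb6c probe lay above Serpinb6e by 3.39 and 2.57 on the log2 scale and above Serpinb6a by 2.15 and 1.76. For the second probe the gaps were 2.59 and 1.84 to Serpinb6e and 1.34 and 1.04 to Serpinb6a. These contrasts lie between probes that differ at few bases, as the stretches above show, and how much each probe bound RNA of the other copies was not tested.

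The 11 probes below background in every channel stand for Serpinb9, 9b, 9c, 9d, 9e, 9f and 9g, of which Serpinb9 is known as the inhibitor of granzyme B in cytotoxic cells, and for Serpinb1b and Serpinb1c. Their net values lay between -3.95 and 29.1 and their mean log2 ratios between -0.43 and 1.11. No level can be read from them at this brightness.

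**Figure D3:**
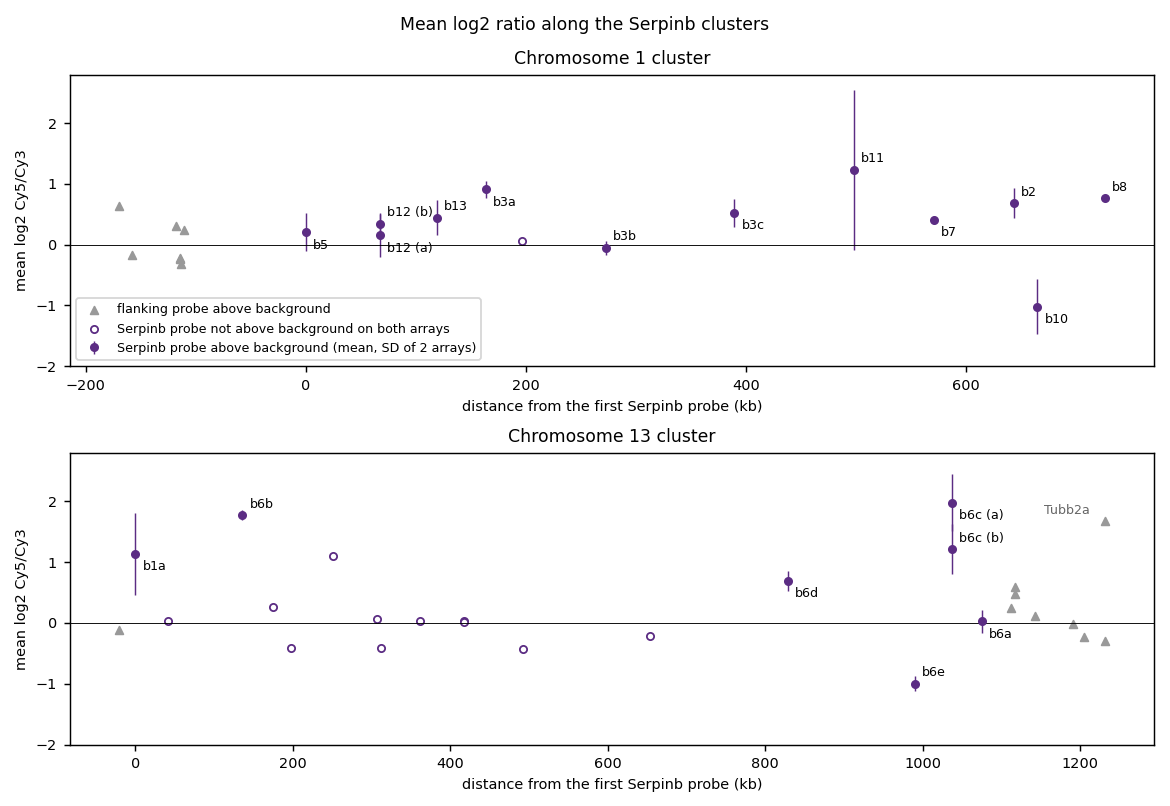
Mean log2 ratio (vertical axis; bars, SD of 2 arrays) against the distance in kb from the first serpin probe of each cluster, with flanking probes above background as grey triangles. On chromosome 1 the flanking probes, all before the cluster, stay between -0.32 and 0.64. On chromosome 13 Tubb2a, at 1.68, is the flanking probe that passes.

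Flanking genes were examined to see whether the ratios were those of the neighbourhood. Within 200 kb of the chromosome 1 cluster, 7 of 15 probes were above background, none passed and the median was -0.17. All 7 lie before Serpinb5, and no flanking probe lies after Serpinb8, so that side was not seen. The 7 include repeated probes of Vps4b and of 1 unnamed transcript, so the median is not one of separate genes. Bcl2, an inhibitor of apoptosis, had the smallest adjusted p with a mean of 0.64 (limma adjusted p = 0.0607). Around the chromosome 13 cluster, 9 of 24 probes were above background with a median of 0.12. All of the 9 but Wrnip1 lie after the cluster. They include repeated probes of Bphl and of 1 unnamed transcript, so this median too is not one of separate genes. Among the 9, Tubb2a, a tubulin, passed with 1.80 and 1.56 (mean 1.68 ± 0.174, adjusted p = 0.000486). Ripk1, a kinase of cell death signalling that lies nearer the cluster than Tubb2a, had a mean of -0.01.

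Promoters from RefSeq on GRCm38.p6 (250 bases before to 50 after the start) were found for 25 of the 27 genes, all but Serpinb13 and Serpinb1a. With Serpinb9h, which has no probe here, there were 32 promoters of 26 genes. They were searched on both strands for AACAANG, letters typical of SOX protein sites, and for TGANTCA, letters typical of AP-1 sites, which reads the same on both strands. AACAANG was in 7 of the 32 promoters, of 6 genes (Serpinb12, 11, 9, 9d, 6d and 6a), beside 14.1% of all 32851 promoters. TGANTCA was in 8 of the 32, of 7 genes (Serpinb5, 12, 11, 7, 2, 10 and 8), beside 7.81% of all. All of the latter lie on chromosome 1, and they include genes that rose, that fell and that did not pass. The 150 bases before the start are shown for Serpinb2 and Serpinb8, whose probes were higher on either side of Serpinb10, and for Serpinb6d, the member with a SOX-type match that rose, all on the forward strand and with the matches in capitals.
Serpinb2, chr1:107511273-107511422: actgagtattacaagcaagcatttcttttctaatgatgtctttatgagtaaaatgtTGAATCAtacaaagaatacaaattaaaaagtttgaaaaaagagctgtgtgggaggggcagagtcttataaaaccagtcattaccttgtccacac
Serpinb8, chr1:107589856-107590005: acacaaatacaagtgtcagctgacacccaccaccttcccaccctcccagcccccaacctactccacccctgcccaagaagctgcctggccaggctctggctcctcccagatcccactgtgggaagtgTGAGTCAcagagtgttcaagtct
Serpinb6d, chr13:33661255-33661404: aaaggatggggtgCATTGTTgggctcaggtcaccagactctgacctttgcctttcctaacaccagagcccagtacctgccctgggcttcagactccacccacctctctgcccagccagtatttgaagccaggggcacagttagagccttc
A match is a run of letters and not a measured site, and binding was not analysed here.

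The proteases that clade B serpins restrain were then examined, with the brightest probe of each gene. Of 13 cathepsins, 11 were above background, none passed and the median log2 ratio was 0.06. Ctsl, the cathepsin L gene, came closest, with 1.05 and 0.44 (mean 0.74 ± 0.430, limma adjusted p = 0.0515). Ctse (mean 0.42, adjusted p = 0.274) and Ctso (0.29, adjusted p = 0.312, below background) were next. Of 18 leukocyte proteases, 11 were never above background and none passed, with a median of -0.04. The smallest adjusted p-values were those of the mast cell tryptase Tpsb2 (mean 0.56, adjusted p = 0.0840) and of the granzymes Gzmk (0.50, adjusted p = 0.111) and Gzma (0.51, adjusted p = 0.128, below background). Elane, the neutrophil elastase gene, was at 0.01, while the Ctsg and Gzmb probes were below background in every channel.

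The plasminogen system, which holds the enzyme restrained by Serpinb2, moved at 2 of the 9 genes listed here, both higher, with a median log2 ratio over the list of 0.08 on array 1 and 0.09 on array 2 and a median of the means of -0.03. Plat, the tissue plasminogen activator, gave 1.76 and 0.76 (mean 1.26 ± 0.709, adjusted p = 0.0147). S100a10, a cell surface partner of plasminogen, gave 1.17 and 1.00 (mean 1.09 ± 0.116, adjusted p = 0.00458). Plau, the urokinase gene itself, had 0.53 and 0.26 and did not pass (adjusted p = 0.188).

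Inhibitors of other families are given for comparison. Of 27 listed serpins of other clades, 26 were measured and 9 were above background. Of the 26, 1 was higher (Serpini1, with a mean of 1.14 and control below background) and 2 lower (Serpina3f, -0.97, and Serpina3i, -0.80). The median over the 26, dim ones included, was -0.01, while that over all 31 clade B probes was 0.20. Among the 9 above background the middle value was that of Serpinf1, 0.34, beside a median of 0.52 for the 19 clade B probes above background. Of 24 other protease inhibitors, 23 were measured, 19 were above background, 1 was higher (Pi16, 0.97, control below background) and the median was 0.29. Markers of the layers give the tissue setting. Of 5 basal markers, Krt15 (-1.03) and Col17a1 (-1.10) fell and the median was -0.44. The 5 suprabasal markers had a median of 0.50 and none passed, with Krt1 (0.62), Lor (0.50) and Krt10 (0.58) closest to the threshold. The suprabasal markers were not uniform, and Dsg1a was negative on both arrays (mean -0.36). Of 5 dermal fibroblast markers 3 were above background and Dcn (-0.79) was lower, with a median of 0.23. Of 5 melanocyte markers none passed, with a median of 0.24. Their part in the serpin ratios was not tested.

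**Figure D4:**
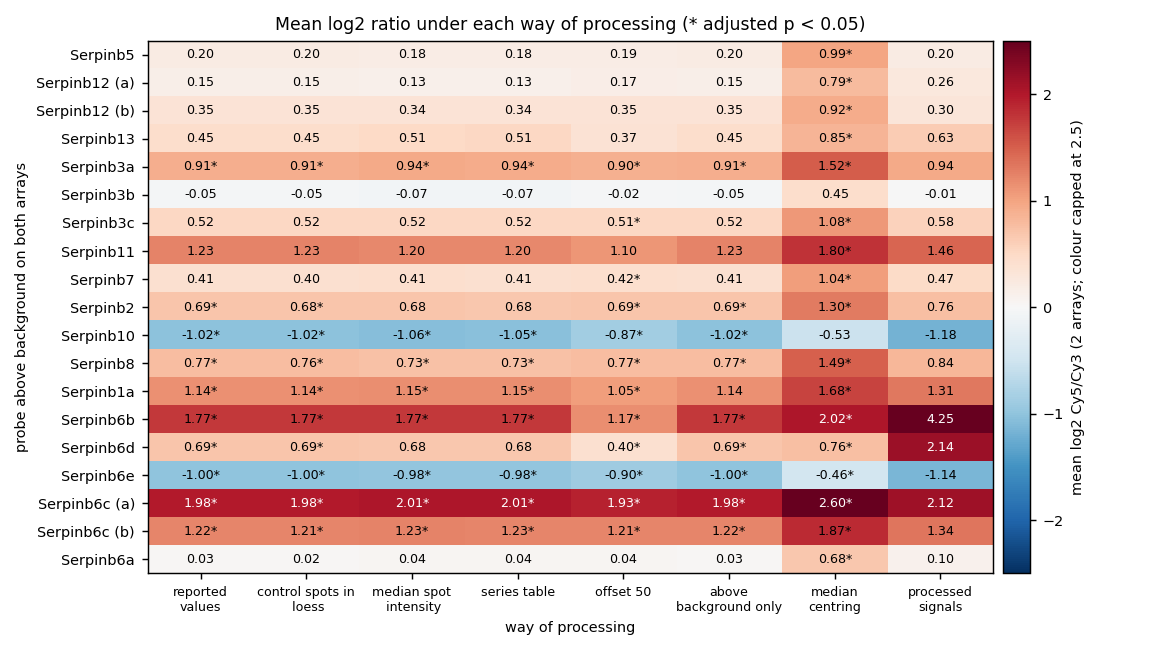
Mean log2 ratio (colour and printed value) of the 19 probes above background, in rows, under the reported processing and 7 other ways of processing, in columns, with an asterisk at an adjusted p under 0.05. Both probes of Serpinb6c and those of Serpinb6b, Serpinb6e, Serpinb3a and Serpinb8 carry an asterisk in every column but that of processed signals, where no probe does, and median centring raises every ratio.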

How the data were processed

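Per the file headers, the scanner files come from Agilent Feature Extraction 10.7.3.1. The intensity values that the authors deposited there are the brightness of each spot and its background in each channel, not normalized. The log2 ratios that the authors deposited in the series table matched a rebuild from median spot intensity with normexp and loess, and served as an alternative. The log10 ratio column deposited in the scanner files holds the software's own comparison and was not used. Probe positions are on mm9.

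Mean spot intensity was corrected with limma 3.58.1 (R 4.3.3) by normexp (offset 16) against median background, and each array was centred by loess with control spots at weight 0. Control spots and flagged spots (194 and 186) were dropped, and spots of a probe averaged. The log2 ratios of 55676 probes on 2 arrays were fitted with an intercept alone, eBayes (prior with 8.34 degrees of freedom and an SD of 0.223) and Benjamini-Hochberg adjustment over all probes. Each adjusted p is from this fit, except where another way of processing is named, whose values were fitted separately in the same manner. Errors are SD over the 2 arrays. A change was read at an adjusted p under 0.05, and called where the mean was also past log2 1.5. A probe was above background in a channel where at least 0.5 of its spots were marked so by the software. Folds for probes whose control was not above background used Aquantile-scaled channels. The dim side was set to the higher of its own signal and the lowest signal above background. These folds are no strict lower bounds, since the lowest signal depends on the offset. The labels call the arrays biological replicates, and their number limits the precision. All described probes are named, with their values, by the rule that at least 1 channel was above background on both arrays; of the lists, the genes that passed are named, or those with the smallest adjusted p, with a few others chosen after their values were seen. The members, the lists and the tests were chosen with earlier results of these data known. The alternatives were an offset of 50, median centring, processed signals, median spot intensity, probes above background alone, the series table, a linear threshold and each array left out. The methods describe a colour swap, which the labels do not show. An item withheld for evaluation was left out of the gene lists and is not reported here.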

Additional observations from a re-analysis of the deposited data

How the results depend on the processing

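The reported counts were 9 probes higher, 2 lower and 2 called. With median centring in place of loess they were 17, 5 and 6, with processed signals 0, 0 and 0, and with an offset of 50 they were 11, 2 and 1, the lost call being Serpinb6b. A linear 1.5-fold threshold gave 11 calls, beside 4.39% of all probes tested, and these were the 9 higher and 2 lower probes again. Median centring moved the median of all probes above background from 0.04 to 0.51, with 12123 probes higher and 6362 lower in place of 1662 and 784, so ratios are relative to the curve through each array. The cause of these changes was not tested. The chromosome 1 median (0.43) was 0.39 with an offset of 50, 1.02 with median centring, 0.53 with processed signals and 0.46 with both median spot intensity and the series table. The chromosome 13 median (1.14) was 1.05, 1.68 and 1.34 under the first 3 of these. With 1 array left out, values without a test, 8 to 11 probes were past the linear threshold upwards and 2 to 4 downwards, 3 to 4 were past log2 1.5, and the medians were 0.41 to 0.43 and 0.81 to 0.93. Serpinb3b turned to 0.45 with median centring (adjusted p = 0.0523). On the single arrays, Serpinb3b ranged from -0.13 to 0.0312, Serpinb6a from -0.11 to 0.16, Serpinb5 from -0.0198 to 0.42 and the Serpinb12 probe at 108846143 from -0.0929 to 0.40. By the adjusted p alone, 10 of the 19 probes stopped passing with processed signals and 2 with median spot intensity. It was 2 with the series table, 1 with probes above background alone and 1 with median centring. An offset of 50 added 2 passing probes (Serpinb3c and Serpinb7) and median centring added 8 (Serpinb5, both probes of Serpinb12, Serpinb13, Serpinb3c, Serpinb11, Serpinb7 and Serpinb6a). These gains stand beside those of the whole array, where an offset of 50 gave 2850 probes higher and 1555 lower in place of 1662 and 784. Keeping control spots in loess, an alternative chosen after seeing the data, did not change which of the 19 passed. The fit is itself paired, because each ratio is already a littermate pair on 1 array. With 1 group of ratios, no further pairing was possible. Signal over background limits the 11 dim probes, for which no change can be read.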
